A study of Rattus norvegicus with 8 samples.

Results

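The genes that open and close the gate to cell division were examined in cultured epithelium of the rat semicircular canal duct (SCCD) with and without dexamethasone, a synthetic glucocorticoid. The group holds 6 inhibitors of cyclin-dependent kinases (Cdkn1a, Cdkn1b, Cdkn1c, Cdkn2a, Cdkn2b and Cdkn2c), 3 D-type cyclins (Ccnd1, Ccnd2 and Ccnd3) and the kinase Cdk4. They were chosen by name: every probe set to which the array annotation gives 1 of these 10 symbols or a synonym was taken. All 10 genes had at least 1 probe set, which gave 14 probe sets of the 15866 on the array that are not controls, and all 14 were bright enough to be tested, among 10368 in all. Ccnd1 had 3 probe sets, Cdkn1a and Cdkn1b 2 each, and the other 7 genes 1 each.

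D-type cyclins are made in response to growth signals and bind Cdk4 or its relative Cdk6. The active pair phosphorylates the retinoblastoma protein, which then releases E2F factors that switch on the genes for DNA replication. The Cip/Kip inhibitors (p21, p27 and p57, from Cdkn1a, Cdkn1b and Cdkn1c) bind whole cyclin-kinase complexes, whereas the INK4 inhibitors (from Cdkn2a, Cdkn2b and Cdkn2c) bind Cdk4 and Cdk6 and keep the D-type cyclins off them. Glucocorticoids are known to slow division in many cell types, and in the SCCD they stimulate absorption of sodium.

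Control cultures (n = 4) were left untreated and dexamethasone cultures (n = 4) received 100 nM dexamethasone. Both were primary cultures from semicircular canals of neonatal Wistar rats of no stated genetic alteration, and the time of exposure for the arrays is not given in the sources used here. Each sample was 1 array, labelled with 2 cycles of in vitro transcription. The labels do not say whether the samples came from separate dissections, so a p-value here reflects only how these samples vary, which may be technical.

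The deposited values are Affymetrix signals, an intensity in arbitrary units. Their trimmed mean, which leaves out the lowest and the highest 2% of the probe sets, was at the target of 500 on replicates 1 and 2 of both groups but was 202 to 336 on replicates 3 and 4, so every array was multiplied by 1 factor to reach 500. The replicates therefore form 2 array sets, each with 2 control and 2 dexamethasone arrays. The member results below are given over all arrays, with the set as a block, and within each set. How far the 3' end of beta-actin outshines its 5' end, 1 sign of RNA quality, also moved with the treatment: that ratio ran from 8.10 to 13.7 in control against 6.17 to 8.07 with dexamethasone, and its part in the results was not tested beyond the covariate fits below. For GAPDH the control arrays gave 2.10 to 3.79 and the dexamethasone arrays 2.14 to 3.18, so this second ratio did not separate them. Control replicate 3 gave the highest of both ratios (13.7 and 3.79) and the lowest trimmed mean (202). The other controls had beta-actin ratios of 8.10 to 9.60. Across all probe sets 195 were higher and 84 lower with dexamethasone (limma, Benjamini-Hochberg adjusted p under 0.05). On the signals as deposited the split was 34 higher and 4 lower, with the median of all log2 fold changes shifted by 0.16.

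The cultures carried the marks of an epithelium. All 10 epithelial markers with a probe set exceeded a threshold set by silent genes on 8 of 8 arrays. The threshold, taken from genes specific to other tissues such as pancreas and retina (their 95th percentile on each array), lay between 106 and 170.1. Of 10 fibroblast markers 6 also exceeded it on every array, with a summed signal of 20914 to 24017 in control against 18484 to 23769.5 with dexamethasone. The endothelial markers Pecam1, Vwf and Tie1, the macrophage markers Cd68 and Ptprc, the melanocyte marker Mlana and both hair cell markers with a probe set (Ocm and Calb2) exceeded it on no array. Of the 2 melanocyte markers with a probe set, the other exceeded it on some arrays but not on all. Some single markers moved with the treatment, given here on the log2 scale. Among 5 endothelial markers Kdr rose by 2.00 and Flt1 differed by -1.96 (limma adjusted p = 2.98e-05 and 0.0200). Their summed signal was 931 to 1178 in control and 2731 to 3269 with dexamethasone. Among 8 markers of neurons and Schwann cells Pmp22 rose by 1.32 (limma adjusted p = 0.0124). The sums were 1488 to 2728 against 2591.5 to 3911, and 5 of the 8 exceeded the threshold on no array. Of 6 macrophage markers none was called (sums of 784 to 1335 against 1054 to 4301). Of these 6, 2 (Aif1 and Cd14) lay above the threshold on all 8 arrays. Among the epithelial markers Krt18, a keratin, differed by -0.47 (limma adjusted p = 0.0300). Blocking on the array set, the keratin Krt8 (-0.33, limma adjusted p = 0.0393) and the fibroblast collagen Col1a2 (-0.58, limma adjusted p = 0.0139) were also lower, beside the members called in that fit. The part of such cells in the results below was not tested. Of 9 genes known to be induced by glucocorticoids 8 rose, among them Sgk1, a kinase that acts on sodium channels, by 3.19 on the log2 scale, and Fkbp5 and Tsc22d3 by 2.14 and 2.16 (limma adjusted p = 1.09e-06 to 4.13e-05). In bulk samples fewer cells of a type and less RNA per cell cannot be told apart, which holds for every value below.

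Of the 10 genes, Ccnd1 was the 1 that passed the test at its strongest probe set, and it was lower with dexamethasone. All 3 of its probe sets passed, so that 3 of the 14 probe sets were called, all 3 lower, against 0.810% of all probe sets tested called lower and 2.69% called in either direction. Of the 14 probe sets, 11 had a lower and 3 a higher mean log2 signal with dexamethasone, beside 54.1% of all probe sets tested that were lower. Their median log2 fold change was -0.67 beside -0.023 over all probe sets tested. Counted by gene at the strongest probe set, 7 of the 10 were lower and 3 higher, with a median of -0.35. In replicates 1 and 2 alone the median by gene was -0.25 (7 lower, 3 higher). In replicates 3 and 4 alone it was -0.026 (5 lower, 5 higher). For the 14 probe sets the medians were -0.91 in replicates 1 and 2 and -0.25 in replicates 3 and 4. Once the array set was a block, 7 of the 14 were called against 5.57% of all probe sets: 6 lower (Ccnd1, Cdkn1a and Ccnd2; background 2.26%) and 1 higher (Cdkn1c; background 3.32%). In replicates 1 and 2 alone 7 were called against 4.24%, in replicates 3 and 4 alone 0 against 0.203%, and with the beta-actin ratio as a covariate 2 against 0.627%. The plot of signals on each array shows all 14.

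**Figure D1:**
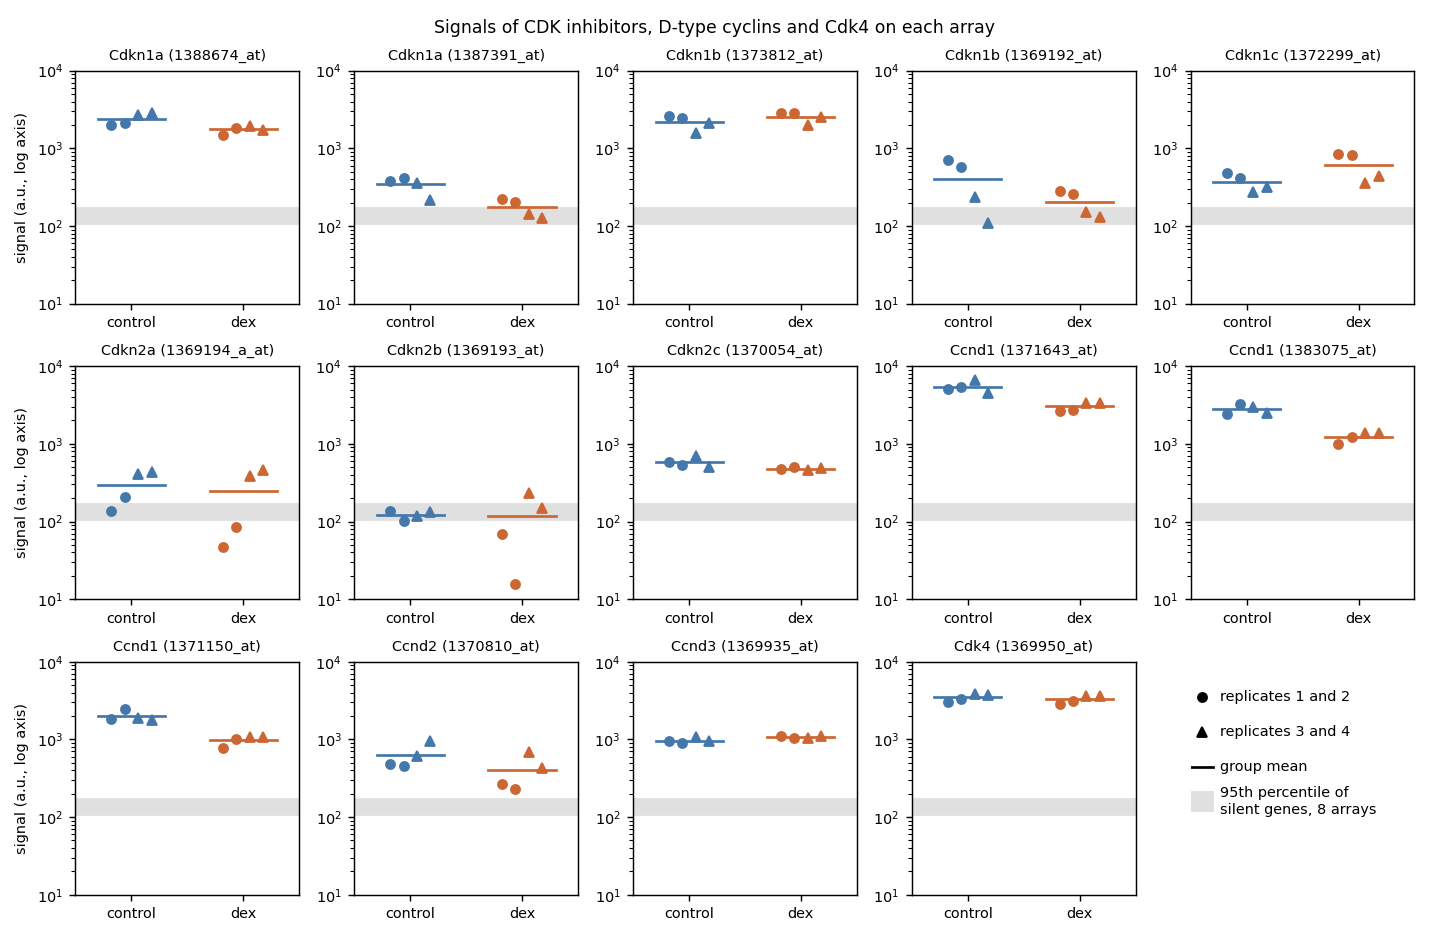
Signal of each probe set on each array (points, 4 control and 4 dexamethasone, circles for replicates 1 and 2 and triangles for replicates 3 and 4) with the group mean (line); the log axis is in arbitrary units of rescaled signal. The 3 Ccnd1 panels show every dexamethasone array below every control array, while in the panels of Cdkn2a and Cdkn1b (1369192_at) the circles and the triangles lie apart.

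Cyclin D1, the D-type cyclin that answers most directly to growth factors, had the clearest difference. At its strongest probe set (1371643_at), the Ccnd1 signal on control replicates 1 to 4 was 5030.0, 5381, 6651 and 4532. On dexamethasone replicates 1 to 4 it was 2659.6, 2758, 3382 and 3367. The lowest control signal, 4532, lay well above the highest dexamethasone signal, 3382. The mean Ccnd1 signal was 5399 ± 905 in control against 3042 ± 387 with dexamethasone (SD, n = 4 each), or 1.77-fold lower by the mean log2 signals (log2 fold change -0.82, SE 0.13, limma adjusted p = 0.00455).

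The other probe sets of Ccnd1 showed a larger difference. Probe set 1383075_at had signals of 2389 to 3219 in control and 1004 to 1369 with dexamethasone, a log2 fold change of -1.16 (SE 0.13, limma adjusted p = 6.39e-04), or 2.24-fold lower. Probe set 1371150_at had signals of 1776 to 2477.5 in control and 780.2 to 1081 with dexamethasone, a log2 fold change of -1.02 (SE 0.14, limma adjusted p = 0.00212). Neither overlapped between the groups (two-sided p = 0.0286 by exact permutation, as for 1371643_at, which is the lowest that 4 arrays against 4 allow). Over the 8 arrays the 3 Ccnd1 probe sets varied together, with Pearson r of 0.923 to 0.988, which describes these arrays only. Probe set 1383075_at was 29th of 10368 by p, 1371150_at 58th and 1371643_at 83rd.

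Ccnd1 was lower with dexamethasone in both array sets. In replicates 1 and 2 the log2 fold changes of 1371643_at, 1383075_at and 1371150_at were -0.94, -1.33 and -1.27, and in replicates 3 and 4 they were -0.70, -1.001 and -0.77. All 3 passed the test in replicates 1 and 2 (limma adjusted p = 3.55e-04 to 0.00337). In replicates 3 and 4 alone none did (limma adjusted p = 0.0772 to 0.272). Blocking on the array set gave limma adjusted p = 4.21e-04 to 0.00182. With the log2 beta-actin ratio as a covariate 1383075_at and 1371150_at passed (limma adjusted p = 0.0268 and 0.0281) and 1371643_at did not (log2 fold change -0.66, adjusted p = 0.157).

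Cyclin D2, which shares the partners of cyclin D1, had a lower mean with dexamethasone but a wide spread. Its signal (1370810_at) on control replicates 1 to 4 was 482, 461, 619 and 949, and on dexamethasone replicates 1 to 4 it was 270.1, 233, 682 and 428. Dexamethasone replicate 3 lay above 3 of the 4 control arrays, so the groups overlapped, but within each array set both controls lay above the dexamethasone arrays except for that replicate against control replicate 3. Ccnd2 differed by -0.71 on the log2 scale (SE 0.32, limma adjusted p = 0.301, with a 95% interval of -1.41 to -0.010). It was -0.91 in replicates 1 and 2, which passed (limma adjusted p = 0.0139), and -0.51 in replicates 3 and 4 (adjusted p = 0.530). With the array set blocked, Ccnd2 passed narrowly (SE 0.18, limma adjusted p = 0.0484). The signal itself was higher in replicates 3 and 4 than in replicates 1 and 2, by 0.90 on the log2 scale (limma adjusted p = 0.0280).

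Cyclin D3, the D-type cyclin often kept in cells that differentiate, stayed within a narrow range. Its signal (1369935_at) was 952, 907, 1063 and 946 on control replicates 1 to 4 and 1095, 1042, 1052 and 1121 on dexamethasone replicates 1 to 4. Control replicate 3 lay above 2 dexamethasone arrays, and the other 3 controls lay below all 4. Ccnd3 differed by 0.16 on the log2 scale (SE 0.10, limma adjusted p = 0.490, with a 95% interval of -0.060 to 0.38), and an exact permutation test gave a two-sided p = 0.0857. Whether the 3 D-type cyclins differed from each other in their response was not tested.

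Cdk4, the kinase that D-type cyclins activate, showed little difference. Its signal (1369950_at) was 3010.3, 3312, 3840.1 and 3722 on control replicates 1 to 4 and 2863, 3089.8, 3664 and 3596 on dexamethasone replicates 1 to 4. The arrays of both groups ran in the same order, lower in replicates 1 and 2 and higher in replicates 3 and 4. Cdk4 differed by -0.073 on the log2 scale (SE 0.11, limma adjusted p = 0.811, with a 95% interval of -0.32 to 0.17), and on the signals as deposited its sign turned (0.091). Blocking on the array set, its interval narrowed to -0.23 to 0.084.

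Promoter sequence was at hand for 7 of the 10 genes (RefSeq, build GRCr8) and not for Cdkn1c, Ccnd1 and Ccnd2. That of Cdk4 is shown because its kinase is the partner of all 3 D-type cyclins, and those of Cdkn1a and Cdkn2b because they hold a p53 half-site and the letters TGACGTCA. Each is printed from the start of the 300-base window to the base before the first annotated base of the gene, 5′ to 3′ on the strand of the gene, with motif matches in capitals.
Cdk4, chr7:64771203-64771452: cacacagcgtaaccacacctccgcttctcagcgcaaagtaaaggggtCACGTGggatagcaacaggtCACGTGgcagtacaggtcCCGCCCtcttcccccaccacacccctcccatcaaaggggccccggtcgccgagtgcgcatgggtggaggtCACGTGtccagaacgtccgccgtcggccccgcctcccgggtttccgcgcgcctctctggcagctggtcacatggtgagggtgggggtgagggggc
Cdkn1a, chr20:7150682-7150819: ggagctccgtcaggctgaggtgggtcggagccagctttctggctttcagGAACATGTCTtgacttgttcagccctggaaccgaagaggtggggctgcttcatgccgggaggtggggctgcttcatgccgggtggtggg
Cdkn2b, chr5:109134907-109135105: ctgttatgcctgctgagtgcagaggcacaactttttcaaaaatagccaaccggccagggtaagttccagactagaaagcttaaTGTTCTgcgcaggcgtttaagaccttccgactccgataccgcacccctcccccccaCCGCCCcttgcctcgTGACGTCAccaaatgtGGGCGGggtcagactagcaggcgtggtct
Cdk4 and Cdkn1a lie on the plus strand and Cdkn2b on the minus strand. The capitals in Cdk4 mark CACGTG, the E-box that MYC and related factors can bind, at 3 places, and 1 match to the GC box GGGCGG on the opposite strand. Those in Cdkn1a mark 1 match to the p53 half-site, a motif that was added after the sequence had been seen. Those in Cdkn2b mark TGACGTCA, the cAMP response element, together with GC boxes and the reverse complement of AGAACA, the half-site of the glucocorticoid response element.

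Matches were sought on both strands in the whole windows, which run from 250 bases before to 50 bases after a start. CACGTG was in 6.42% of all 33469 windows and, of these genes, in Cdk4. GGGCGG was in 33.1% of all windows and in 6 of the 7 member windows, all but that of Cdkn1a. TGACGTCA was in 1.83% of all windows and in that of Cdkn2b, and AGAACA in 20.7% and in that of Cdkn2b. The p53 half-site was in 7.98% of all windows and in those of Cdkn1a and Cdkn2c. The full glucocorticoid response element (AGAACA and its reverse complement with 3 bases between), the AP-1 motif TGANTCA and the E2F motifs TTTCCCGC and TTTGGCGC were in none of the 7. Of all windows they were in 0.0149%, 7.33%, 0.974% and 0.493%. AGAACA lies within the full response element, so their matches can overlap, and a match describes the sequence and not a bound site.

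p21, the product of Cdkn1a, is the inhibitor that p53 induces after damage, and Cdkn1a was lower with dexamethasone at both of its probe sets. At the strongest (1388674_at) its signal was 1982, 2092, 2665 and 2813 on control replicates 1 to 4 and 1483, 1846, 1918 and 1741 on dexamethasone replicates 1 to 4. Every dexamethasone array lay below every control array, though the gap was small (1918 against 1982). On the log2 scale the difference was -0.44 (SE 0.13, limma adjusted p = 0.118, with a 95% interval of -0.73 to -0.15), which missed the threshold.

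At the dimmer Cdkn1a probe set (1387391_at) the signal was 384, 414, 358 and 218 on control replicates 1 to 4 and 222, 203, 144 and 129 on dexamethasone replicates 1 to 4. Control replicate 4 lay just below dexamethasone replicate 1, the sole overlap. Its log2 difference was -0.97 (SE 0.24, limma adjusted p = 0.0532), at the edge of the threshold. Without control replicate 4 this Cdkn1a probe set passed (log2 fold change -1.18, limma adjusted p = 0.0140). With the array set blocked, both probe sets passed (limma adjusted p = 0.0293 for 1388674_at and 0.00680 for 1387391_at). Within the array sets 1388674_at differed by -0.30 in the first set (replicates 1 and 2) and -0.58 in the second, and 1387391_at by -0.91 and -1.03. With the beta-actin ratio as a covariate neither passed (limma adjusted p = 0.705 for 1388674_at and 0.372 for 1387391_at). Their log2 differences were then -0.27 (SE 0.17) and -0.96 (SE 0.34). That ratio did not overlap between the groups, so the covariate fit separates it from the treatment only weakly. The mean of both Cdkn1a probe sets passed without a block (log2 difference -0.71, limma adjusted p = 0.00844), although they varied together only loosely over the 8 arrays (Pearson r = 0.376, a description).

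p27, from Cdkn1b, holds back cells at rest, and its probe sets gave opposite signs. The strongest (1373812_at) had signals of 2634, 2427, 1557 and 2125 on control replicates 1 to 4 and 2883, 2852, 1972 and 2537 on dexamethasone replicates 1 to 4. In both groups replicate 3 was lowest, and in replicates 1 and 2 both dexamethasone arrays lay above both controls. For 1373812_at the log2 difference was 0.24 (SE 0.17, limma adjusted p = 0.537), and with the beta-actin ratio as a covariate it turned to -0.16.

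The other Cdkn1b probe set (1369192_at) had signals of 713, 574, 237 and 108 on control replicates 1 to 4 and 278, 259, 150.1 and 131 on dexamethasone replicates 1 to 4. The controls alone spanned the whole range of the dexamethasone arrays. Here the log2 difference was -0.72 (SE 0.50, limma adjusted p = 0.531), with -1.25 in replicates 1 and 2 (adjusted p = 0.00314) and -0.19 in replicates 3 and 4 (adjusted p = 0.849). Its signal was lower in replicates 3 and 4, by 1.47 on the log2 scale (limma adjusted p = 0.0210). It lay only just above the silent threshold on control replicate 4 (108 against 106) and dexamethasone replicate 4 (131 against 119). For Cdkn1b no direction can therefore be given.

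p57, from Cdkn1c, is an imprinted inhibitor tied to the exit from division during development, and it was the sole member called higher in any of these fits. Its signal (1372299_at) was 480.4, 415, 274 and 319 on control replicates 1 to 4 and 848, 809, 359 and 438 on dexamethasone replicates 1 to 4. Within each array set both dexamethasone arrays lay above both controls, but dexamethasone replicates 3 and 4 lay below the highest control. Cdkn1c differed by 0.66 on the log2 scale (SE 0.28, limma adjusted p = 0.271, with a 95% interval of 0.050 to 1.27), or 1.58-fold, and did not pass. With the array set blocked, it passed (SE 0.14, limma adjusted p = 0.0206), with 0.89 in replicates 1 and 2 (adjusted p = 0.00738) and 0.43 in replicates 3 and 4 (adjusted p = 0.467). Replicates 3 and 4 were lower than replicates 1 and 2 by 0.83 on the log2 scale (a difference of -0.83, limma adjusted p = 0.0150). With the beta-actin ratio as a covariate the value was 0.32 (adjusted p = 0.867).

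**Figure D2:**
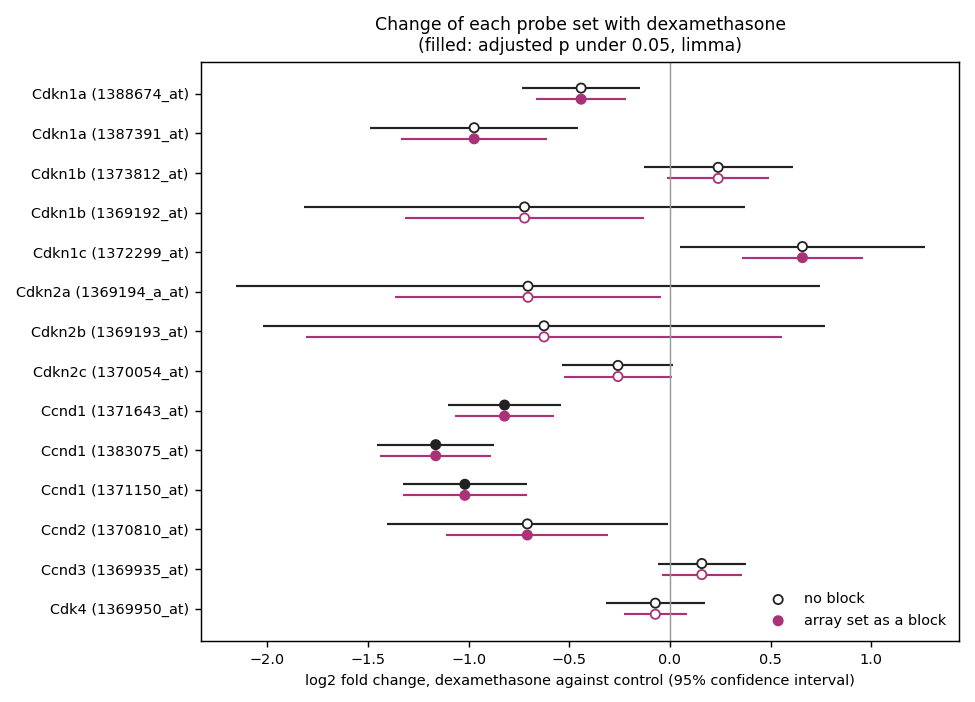
Log2 fold change with dexamethasone of each probe set (points, 4 arrays against 4) and its 95% confidence interval by limma (lines), without a block (dark) or blocking on the array set (purple). Filled points passed the test, which without a block were the 3 of Ccnd1 and with it also both of Cdkn1a, Ccnd2 and, to the right of 0, Cdkn1c.

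The INK4 genes did not pass the test in any of these fits. Cdkn2c, which encodes p18, had the least spread of the 3 INK4 genes (1370054_at), with signals of 592, 535, 689.9 and 501.7 on control replicates 1 to 4 and 479, 499.7, 455 and 492 on dexamethasone replicates 1 to 4. Every dexamethasone array lay below every control array, the closest being 499.7 and 501.7. Cdkn2c differed by -0.26 on the log2 scale (SE 0.13, limma adjusted p = 0.350, with a 95% interval of -0.53 to 0.018), with -0.20 and -0.31 within the array sets. Of all probe sets tested 5.46% were lower without overlap in the same way, and of the 14 members 5 were, the 3 of Ccnd1, 1388674_at of Cdkn1a and that of Cdkn2c.

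Cdkn2a, the locus of p16 and of ARF, a protein that stabilises p53, differed between the array sets. Its signal (1369194_a_at) was 136, 207, 409 and 437 on control replicates 1 to 4 and 46.4, 84.7, 390.0 and 463 on dexamethasone replicates 1 to 4. All 4 arrays of replicates 3 and 4 lay above all 4 of replicates 1 and 2, a difference of 2.05 on the log2 scale (limma adjusted p = 0.00952). Between the treatments the log2 difference was -0.71 (SE 0.66, limma adjusted p = 0.664), split into -1.42 for replicates 1 and 2 and 0.0073 for the other set. Cdkn2a exceeded the silent threshold on 3 of 4 control and 2 of 4 dexamethasone arrays. Which of the products of the locus the probe set reads is not given in the sources used here.

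Cdkn2b, which encodes p15, an inhibitor induced by TGF-beta, had the lowest signal against the silent genes (1369193_at), above them on 3 of 8 arrays. It was 138, 102, 117 and 134 on control replicates 1 to 4 and 69.8, 15.5, 235 and 148 on dexamethasone replicates 1 to 4. The dexamethasone arrays lay below both controls in replicates 1 and 2 and above both in replicates 3 and 4. Cdkn2b differed by -0.63 on the log2 scale (SE 0.64, limma adjusted p = 0.692), with -1.83 and 0.58 within the array sets. Without dexamethasone replicate 2, whose signal of 15.5 was under the floor of 16, it was 0.14.

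Whether the difference with dexamethasone itself differed between the array sets was tested as an interaction. Of the 14 probe sets 0 passed (limma, adjusted p = 0.787 to 0.978), as did 0.00% of all probe sets tested. The smallest unadjusted limma p-values among the 14 were those of Cdkn2a (0.00762), Cdkn2b (0.0139) and 1369192_at of Cdkn1b (0.0387). Each of these had an adjusted p of 0.787. The sign was the same in both sets for 12 of the 14, all but Cdkn2a and Cdkn2b. The level itself differed between the array sets for 4 of 14 (Cdkn2a and Ccnd2 higher in replicates 3 and 4, Cdkn1c and 1369192_at of Cdkn1b lower), against 3.49% of all probe sets (limma, adjusted p under 0.05). What sets the array sets apart beyond their deposited scale is not given in the sources used here, and its part in these results was not tested.

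**Figure D3:**
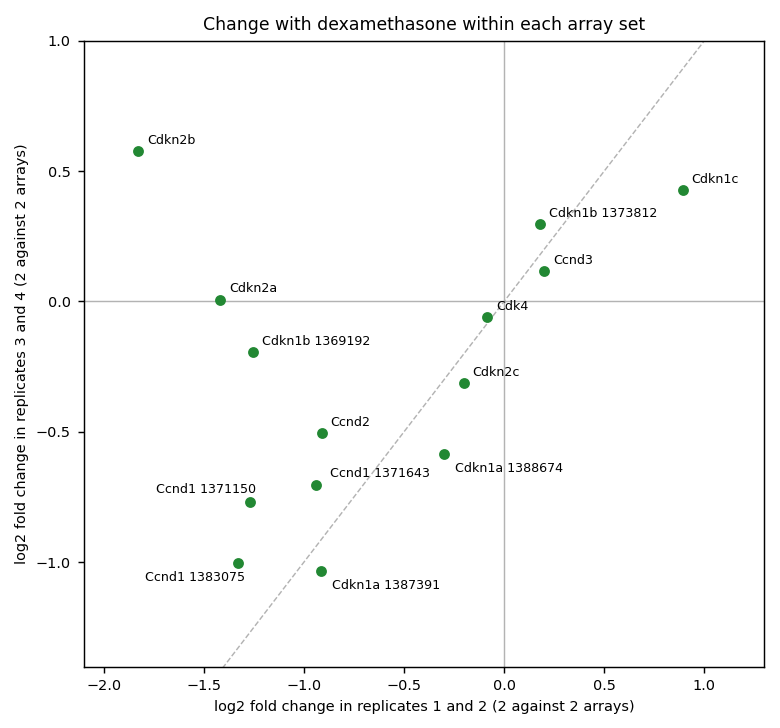
Log2 fold change of each probe set, dexamethasone against control, in replicates 1 and 2 (horizontal axis) and in replicates 3 and 4 (vertical axis), each from 2 arrays against 2, with the line of equal values dashed. The Ccnd1 and Cdkn1a probe sets lie in the lower left quadrant and Cdkn1c in the upper right, while Cdkn2b lies at -1.83 and 0.58 with the sign turned.

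The other genes of the G1/S machinery showed no call. Of 36 genes listed 24 were tested, and 0 passed the test (limma), with a median log2 fold change of 0.048. An unadjusted limma p under 0.05 was common on these arrays. It was found for 6 of the 24, and the highest of those 6, 0.0450, ranked 1584th of the 10368 probe sets tested. Mnat1, a subunit of the kinase that activates other cyclin-dependent kinases, had the smallest adjusted p, with mean signals of 1078 ± 126 in control against 1570.1 ± 271 with dexamethasone (SD, n = 4 each, limma adjusted p = 0.0674). Ccne1, cyclin E1, which acts with Cdk2 after the D-type cyclins, had 314 ± 68.4 in control against 188 ± 45.0 with dexamethasone (SD, n = 4 each), a log2 fold change of -0.75 (limma adjusted p = 0.0866). Cks2, a small partner of these kinases, had 1432 ± 365 and 999.7 ± 62.0 (SD, n = 4 each, limma adjusted p = 0.173). With the array set blocked, Mnat1 and Ccne1 passed, 1 higher and 1 lower (limma adjusted p = 0.0209 and 0.0413). These were 2 of the 24, beside 5.57% of all probe sets tested called in that fit. Cdk6, the other partner of the D-type cyclins, exceeded the silent threshold on 0 of 8 arrays, at means of 78.4 in control and 87.5 with dexamethasone.

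Genes of S phase and mitosis, which follow once the gate is open, lay mostly lower with dexamethasone. Of 40 listed 28 were tested, of which 3 fell, 0 rose and 25 did not pass (limma), beside 0.810% of all probe sets tested called lower. Of the 28, 27 had a lower mean log2 signal with dexamethasone, beside 54.1% of all probe sets tested, with a median log2 fold change of -0.39 beside -0.023 over all probe sets tested, and -0.50 and -0.28 within the 2 array sets. The 3 that fell were Tk1, thymidine kinase of the nucleotide salvage path, at -0.84 (limma adjusted p = 0.00696), Cdc20, an activator of the complex that ends mitosis, at -0.58 (adjusted p = 0.0316), and Top2a, the topoisomerase that untangles replicated DNA, at -0.53 (adjusted p = 0.0488). Rrm1, a subunit of ribonucleotide reductase, was the exception, at 0.51 (limma adjusted p = 0.0684). It passed as higher with the array set as a block (limma adjusted p = 0.0172), where 4 others were lower. Of all probe sets tested 3.32% were called higher and 2.26% lower in that fit. Without any 1 of 7 of the arrays Tk1 alone passed, and without control replicate 4 Tk1 and Cdc20 did. With the beta-actin ratio as a covariate 0 of the 28 passed. Mki67 and Pcna, the usual marks of dividing cells, had log2 fold changes of -0.24 and -0.11 (limma adjusted p = 0.509 and 0.696). This list was drawn up with earlier results of these data known, in which genes of proliferation had been examined.

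Targets of p53 other than Cdkn1a were split in direction. Of 18 listed 9 were tested, of which 2 rose and 0 fell (limma) and 7 were not called. Of all probe sets tested 2.69% were called in either direction and 0.810% were called lower. Of the 9, 5 were lower in mean log2 signal, beside 54.1% of all probe sets tested, with a median log2 fold change of -0.041. Sesn1, a sestrin that restrains growth signalling, rose by 0.98 on the log2 scale (limma adjusted p = 0.0183), from 139 ± 35.2 to 268 ± 28.3 (SD, n = 4 each). It exceeded the silent threshold on 2 of 4 control and 4 of 4 dexamethasone arrays, so its control level lay close to that threshold. Ddit4, a growth brake that glucocorticoids are also known to induce, rose by 0.64 (limma adjusted p = 0.0248). Mdm2, the negative regulator of p53, had -0.29 (adjusted p = 0.510), and Ccng1 and Gadd45a had -0.041 and 0.13 (adjusted p = 0.907 and 0.759). Phlda3, Plk2 and Zmat3 had -0.62, -0.44 and -0.41 (limma adjusted p = 0.200, 0.288 and 0.203), and Perp had 0.13 (adjusted p = 0.607). Without dexamethasone replicate 4 neither Sesn1 nor Ddit4 passed. Without control replicate 2 or 3 or dexamethasone replicate 3 Sesn1 alone passed, and without dexamethasone replicate 1 or 2 Ddit4 alone. In replicates 1 and 2 alone neither passed, and the 2 genes called there, Phlda3 and Plk2, were both lower (-0.94 and -0.51, limma adjusted p = 0.0231 and 0.0319). In that fit 4.24% of all probe sets tested were called.

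**Figure D4:**
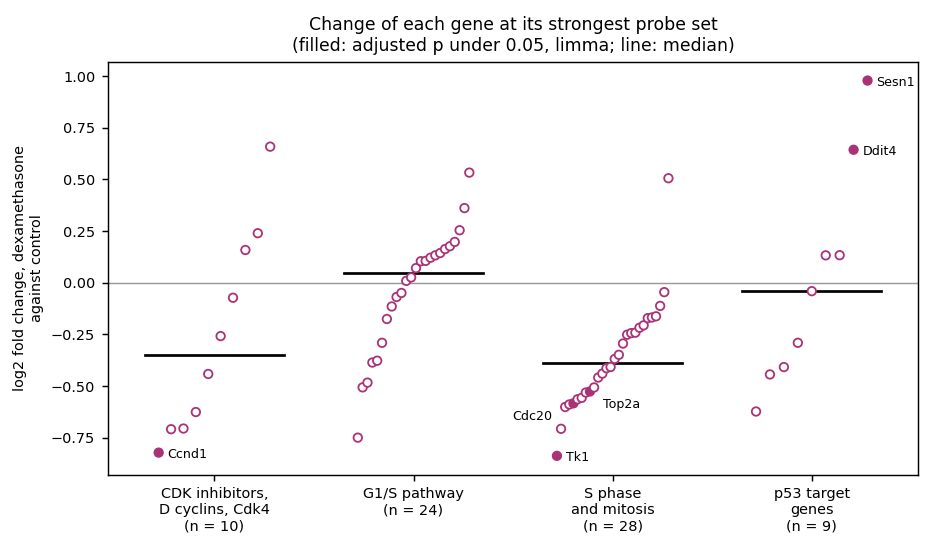
Log2 fold change with dexamethasone (4 arrays against 4) of each gene at its strongest probe set, sorted within each group of genes, with the median (line) and filled points for an adjusted p under 0.05 from limma. The medians are -0.35 for the 10 genes, 0.048 for the G1/S pathway, -0.39 for S phase and mitosis and -0.041 for p53 targets, and the filled points are Ccnd1, Tk1, Cdc20, Top2a, Sesn1 and Ddit4.

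The genes whose log2 signal followed that of Ccnd1 (1371643_at) most closely over the 8 arrays were Tk1 (Pearson r = 0.982), Bub3, of the spindle checkpoint (0.976), and Il1rl1, the receptor of interleukin 33 (0.975). These values describe 8 arrays that share the treatment, and are given without a test. Tk1 went from 753 in control to 419 with dexamethasone, Bub3 from 4647 to 3815 (log2 fold change -0.28, limma adjusted p = 0.0795) and Il1rl1 from 241 to 122 (-0.97, adjusted p = 0.00771).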

How the data were processed

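The authors isolated RNA from the cultures, amplified it over 2 labelling cycles and measured it on Affymetrix RAE 230A arrays. The deposited values are signal intensities on a linear scale, made by the authors with the Affymetrix statistical algorithms and, per the labels, scaled to a target of 500; the software version is not given in the sources used here. Probe pairs and detection calls were not used here. The table holds 15923 probe sets, 57 of them controls, for 8 arrays. The array annotation gives 1 gene symbol to 12783 of the others, several to 312 and none to 2771.

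Each array was rescaled so that its mean, trimmed by 2% at each end, was 500; a floor of 16 was then applied, log2 was taken, and those averaging at least 100 over the arrays were tested. Groups, taken from the sample labels, were set against each other in R 4.3.3 by limma 3.58.1 (eBayes with a mean-variance trend, two-sided), with Benjamini-Hochberg adjustment over all 10368 probe sets tested. In the alternative without a filter the adjustment ran over all 15866 probe sets other than controls. Where the probe sets of a gene were averaged, it ran over those averages and the remaining probe sets. The test was checked on simulated data of this size. The simulated noise was independent between probe sets and held no array sets, so that check does not cover the differences between the sets seen here. Member probe sets had an exact permutation test on mean log2 signals as well. The number of arrays limits the precision. The silent genes were 57 probe sets of 50 genes of other tissues. For a gene with several probe sets the strongest (highest mean) was counted, and all were reported.

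The members, gene lists and tests were chosen with earlier results of these data known. Named were all members, the genes of each list past the threshold (at most 10) or otherwise the 3 with the smallest adjusted p, Sgk1, Fkbp5 and Tsc22d3, and the 3 closest in pattern to a member that passed. Rrm1, Mki67, Pcna, Cdk6, Mdm2, Ccng1, Gadd45a, Phlda3, Plk2, Zmat3, Perp and the marker genes were named after their values were seen. The lists were the G1/S pathway, S phase and mitosis, p53 targets, glucocorticoid-induced genes, silent genes, and markers of hair cells, endothelium, macrophages, melanocytes, fibroblasts, epithelium, skeletal tissue (cartilage and bone) and nerve (neurons and Schwann cells). Of cartilage and bone markers 1 of 6 exceeded the silent genes on every array, and of neuron and Schwann cell markers 3 of 8. Alternatives were the signals as deposited, quantile normalization, no filter, a floor of 100, no trend, the replicate number or the array set as a block, each array set alone, the beta-actin ratio as a covariate, the average over the probe sets of 1 gene, and each array left out.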

Additional observations from a re-analysis of the deposited data

How the results depend on the processing

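All 3 probe sets of Ccnd1 were lower under every alternative, with adjusted p under 0.05 in 15 of 19 for 1371643_at and 16 of 18 for each of the others. 1371643_at missed it without a filter (limma adjusted p = 0.0656), on the signals as deposited, in replicates 3 and 4 alone and with the beta-actin covariate. The other 2 missed it on the signals as deposited and in replicates 3 and 4 alone.

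Signs turned for members that did not pass: Cdkn1b (1373812_at) with the beta-actin covariate (-0.16) and as the mean of its probe sets (-0.24), Cdkn2a in replicates 3 and 4 alone (0.0073), Cdkn2b with a floor of 100 (0.17), in replicates 3 and 4 alone (0.58) and without dexamethasone replicate 2 (0.14, with -1.15 to 0.14 leaving out 1 array), and Cdk4 on the signals as deposited (0.091) and with the covariate (0.040). The cause was not tested.

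All probe sets called were 279, and 102 without a filter, 38 on the signals as deposited, 578 with the array set as a block, 440 in replicates 1 and 2 alone, 21 in replicates 3 and 4 alone, 65 with the covariate and 180 to 275 leaving out 1 array (184 without dexamethasone replicate 1 and 180 without dexamethasone replicate 2). Member genes called were 1, and 0 without a filter, on the signals as deposited, in replicates 3 and 4 alone and with the covariate, 4 with the array set as a block, 3 in replicates 1 and 2 alone and 1 to 1 leaving out 1 array. Member probe sets called were 3, with 2 without a filter and with the covariate, and 0 on the signals as deposited and in replicates 3 and 4 alone. With quantile normalization there were 4, the added one being 1387391_at of Cdkn1a (limma adjusted p = 0.0249). There were 7 with the array set as a block and in replicates 1 and 2 alone, and 3 to 4 leaving out 1 array.

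G1/S genes called were 0, and 1 with quantile normalization (Mnat1), 2 with the array set as a block, 1 in replicates 1 and 2 alone (Myc) and 0 to 1 leaving out 1 array (Cks2 without control replicate 4). S phase and mitosis genes called were 3, and 1 without a filter or without a trend, 0 on the signals as deposited, in replicates 3 and 4 alone and with the covariate, 5 with the array set as a block (1 higher, Rrm1, and 4 lower), 6 in replicates 1 and 2 alone and 1 to 2 leaving out 1 array. p53 targets called were 2, and 0 without a filter, on the signals as deposited and in replicates 3 and 4 alone, 1 without a trend, 1 with the covariate (Phlda3, lower), 2 in replicates 1 and 2 alone (Phlda3 and Plk2, both lower, in place of Sesn1 and Ddit4), 3 with the array set as a block (with Plk2, lower) and 0 to 2 leaving out 1 array.

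Whether the replicate numbers pair the samples is not known: deviations of same-numbered arrays correlated at 0.35, 0.25, 0.035 and 0.41, and not every sample correlated best with its own number. With the replicate block 484 probe sets were called, with 3 member genes, 6 member probe sets, 2 G1/S genes, 5 S phase and mitosis genes and 3 p53 targets. Cdkn1c passed with either block and in replicates 1 and 2 alone, and Ccnd2 with the array set as a block and in replicates 1 and 2 alone. Both had signals above the silent genes on every array, as had Cdkn1a, though 1387391_at only just on dexamethasone replicate 4 (129 against 119), whereas Cdkn2a and Cdkn2b lay under them on some arrays.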
